A study of Bos taurus with 16 samples.

Results

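Cumulus cells from follicles of the ovary bearing the corpus luteum (ipsilateral) were compared with cumulus cells from follicles on the opposite ovary (contralateral) in cattle. The comparison uses 8 of the 16 libraries of the series, which are all its cumulus libraries, with 4 ipsilateral and 4 contralateral. The other 8 libraries hold granulosa cells of the same 2 sides. Of 36824 gene entries in the count table, 27631 had at least 1 count in a cumulus library, and 16323 passed the filter on low counts and were tested. A gene can be counted under more than 1 entry, so counts of entries are not counts of genes.

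The cows are Bos taurus, and no treatment, age or genotype is named in the labels other than the side. Follicular fluid was aspirated through ovum pick-up, cumulus-oocyte complexes were collected from it under a stereomicroscope, and each library is a pool from 3 animals. Whether an ipsilateral and a contralateral pool share animals is not given, so p-values reflect only how much pools of a side vary. Poly-A RNA was made into cDNA by a kit that does not mark strand, so reads of overlapping genes cannot be assigned with certainty.

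Cumulus cells are the somatic cells that enclose the oocyte, pass nutrients to it through gap junctions and respond to factors it secretes. The corpus luteum forms from an ovulated follicle and secretes progesterone, which reaches the ovary that carries it both locally and through the circulation. The respiratory chain and ATP synthase of mitochondria supply ATP to cells of the follicle, and the extracellular matrix of cumulus cells is rebuilt around ovulation.

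Only part of the table can be read by gene name. Named entries numbered 2474 and held 2.85% of the cumulus counts, whereas Ensembl entries without a name held 94.3%. Of the tested entries, 729 were named. None of the cumulus and granulosa defining markers looked for (FSHR, INHA, AMH, FOXL2 and others) was found by name, so the labelled cell type could not be checked in that way. Of the 23 gene lists, 5 had no tested member. Cumulus expansion, steroidogenesis, TGF-beta signalling and glycolysis had no member found by name, and the 1 steroid receptor found, the oestrogen receptor gene GPER1, had too few counts. Of the 9 lists of cell type markers, 7 had no tested member. Current symbols are given in parentheses.

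Total counts ran from 10.6 to 15.9 M (M, mega) in ipsilateral and from 14.9 to 19.97 M in contralateral libraries. The means were 13.2 ± 2.54 M and 17.6 ± 2.20 M (SD, n = 4 each), with a two-sided exact permutation p of 0.0571 and an adjusted p of 0.229 over 4 library measures. The smallest p that 4 against 4 libraries allow is 0.0286. The part of depth in the differences below was not tested. Levels are CPM, which are counts per 1 M counts of a library after TMM scaling.

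Several libraries stood apart. Contralateral library 2 correlated more closely with each of the ipsilateral libraries than with any other contralateral library. Spearman rank correlations of log2 CPM across entries were 0.980 to 0.984 and 0.969 to 0.977. On the first principal component, which carried 24.2% of the variance, the ipsilateral libraries lay between -31.7 and -15.2. Contralateral libraries 1 to 4 lay at 8.07, -3.39, 35.5 and 52.6. The sides did not overlap on this axis, and contralateral library 2 was the nearest to the ipsilateral libraries. Contralateral library 4 also carried oocyte transcripts, described further on, so counts are given with and without libraries 2 and 4. Leaving out a library that lies near the other side favours a difference between the sides. Counts without library 2 are therefore no support for a side difference.

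No gene entry differed between the sides by edgeR's quasi-likelihood test at an adjusted p under 0.05 (0 of 16323, 0.0%), and the smallest adjusted p was 0.196. At an unadjusted p under 0.05 there were 1791 entries, or 11% of those tested. Ipsilateral values were higher in 685 of them (4.2%) and lower in 1106 (6.78%). limma-voom also called 0 entries. DESeq2, the tool named in the submitters' processing notes, called 22 entries higher (0.11% of the 20086 it gave an adjusted p) and 98 lower (0.488%). On simulated counts of this comparison, DESeq2 made 28 false calls of 167 and edgeR 7 of 132, so DESeq2 adjusted p values are read with that limit.

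**Figure D1:**
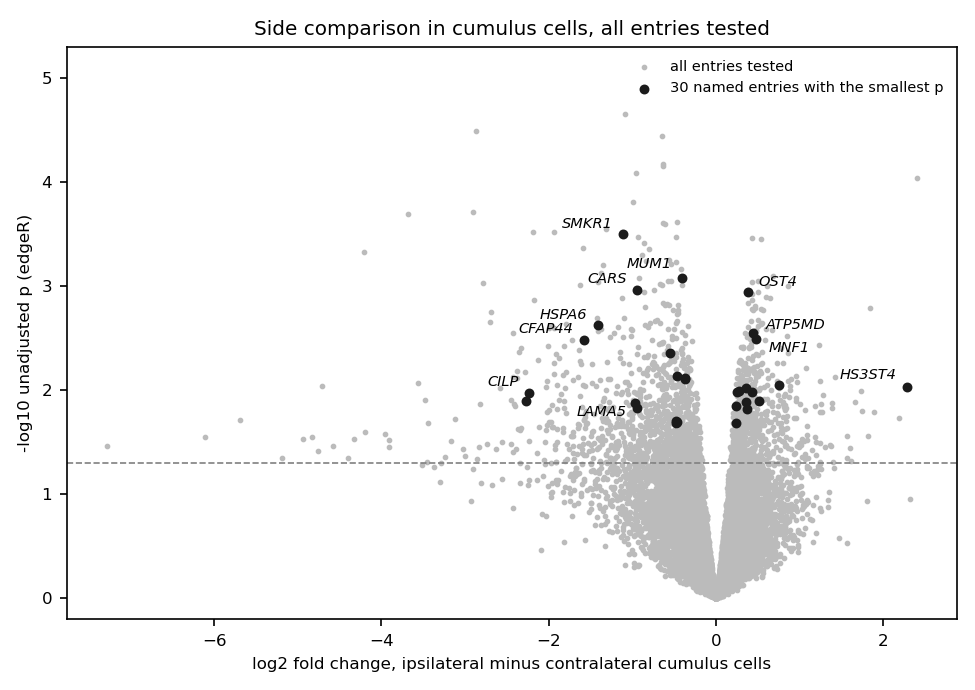
Each point is 1 of the 16323 entries tested, with the log2 fold change (ipsilateral minus contralateral) on the horizontal axis and -log10 of edgeR's unadjusted p on the vertical axis; the dashed line marks a p of 0.05. Black points are the 30 named entries with the smallest p, of which 14 lie right of 0 and 16 left of 0, and no entry passed after adjustment (smallest adjusted p 0.196).

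The DESeq2 calls and edgeR's ranking held many of the same entries. Of the 120 DESeq2 calls, all those that edgeR also tested had an unadjusted edgeR p of at most 0.0284. The other 17, all lower on the ipsilateral side, did not pass edgeR's filter on low counts. In 98 of the 120, the libraries of the 2 sides did not overlap. The 120 were selected on the same values, so neither the edgeR p values nor this count is separate support for them. Over all tested entries the sides did not overlap with ipsilateral libraries higher in 452 (2.77%) and with ipsilateral libraries lower in 368 (2.25%).

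Among the 729 named entries, 33 (4.53%) were higher and 44 (6.04%) lower at an unadjusted p under 0.05, near the 4.2% and 6.78% over all entries tested. Over all 729 named entries, whatever their p, 20 had all ipsilateral libraries above all contralateral ones and 19 had all below. Over all entries tested these shares were 2.77% and 2.25%. None of the named entries below passed edgeR's test after adjustment, and 7 named entries passed DESeq2's.

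SMKR1, which encodes a small lysine-rich protein, had the smallest p of the named entries. It lay at 9.21, 9.93, 8.91 and 9.92 CPM in ipsilateral libraries 1 to 4 and at 18.5, 13.9, 29.9 and 19.0 CPM in contralateral libraries 1 to 4. All contralateral values were above all ipsilateral ones, and the ipsilateral values lay within a narrow range. The log2 fold change was -1.11 ± 0.22 (SE), with an adjusted p of 0.263 by edgeR. DESeq2 called SMKR1 with all libraries and without each of them in turn, with adjusted p values from 3.61e-05 to 0.0380. It was the only one of the 7 named DESeq2 calls for which this held.

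CARS (CARS1), which loads cysteine onto its tRNA, lay at 20.3, 18.4, 20.9 and 19.7 CPM in ipsilateral and at 30.5, 28.3, 59.1 and 33.0 CPM in contralateral libraries. The sides did not overlap, and contralateral library 3 was far above the others. The log2 fold change was -0.94 ± 0.22 (SE, edgeR adjusted p = 0.324, DESeq2 adjusted p = 0.0207), and -0.63 without that library. DESeq2 did not call CARS without ipsilateral library 2 (adjusted p = 0.0727), 3 (0.0687) or 4 (0.0789). The other 17 aminoacyl-tRNA synthetases tested had p values of 0.0587 or more. GARS (GARS1), for glycine, had a log2 fold change of -0.34 ± 0.16 (SE), and AARS (AARS1), for alanine, -0.15 ± 0.08. Over the 18 enzymes the median was -0.07, with 6 above 0, beside a median of -0.01 and 48.2% above 0 over all entries tested.

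MUM1 (PWWP3A), a chromatin protein with a PWWP domain, lay at 101, 107, 102 and 99.9 CPM in ipsilateral and at 130, 118, 147 and 142 CPM in contralateral libraries. The sides did not overlap, and the difference was small, with a log2 fold change of -0.40 ± 0.09 (SE, edgeR adjusted p = 0.323, DESeq2 adjusted p = 0.0320). HSPA6, a stress-inducible member of the HSP70 chaperones, lay at 3.18, 5.92, 5.36 and 2.14 CPM in ipsilateral and at 7.99, 11.1, 7.35 and 17.1 CPM in contralateral libraries. Here too the sides did not overlap, with contralateral library 4 the highest. Its log2 fold change was -1.41 ± 0.36 (SE, edgeR adjusted p = 0.377, DESeq2 adjusted p = 0.0368). The only other member of the chaperone list with a name, the co-chaperone gene BAG5, had 0.07 ± 0.21.

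OST4, a small subunit of the oligosaccharyltransferase that adds glycans to proteins in the endoplasmic reticulum, lay at 128, 145, 166 and 144 CPM in ipsilateral libraries. It lay at 114.2, 115.6, 103.5 and 107.3 CPM in contralateral libraries. All ipsilateral values were above all contralateral ones. The log2 fold change was 0.39 ± 0.09 (SE, edgeR adjusted p = 0.324, DESeq2 adjusted p = 0.0392). OST4 overlaps AGBL5 in the RefSeq annotation.

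**Figure D2:**
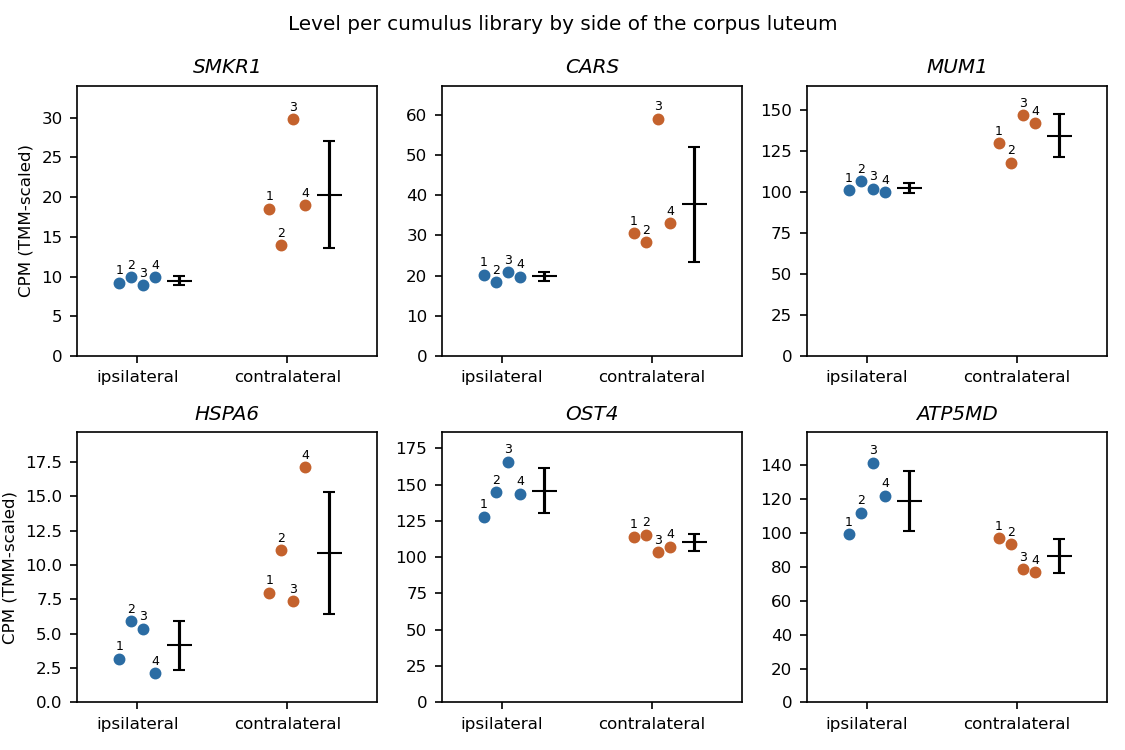
TMM-scaled CPM of SMKR1, CARS, MUM1, HSPA6, OST4 and ATP5MD in each cumulus library, numbered within its side, with mean and SD (n = 4) to the right of the points. The sides do not overlap in any of the 6 panels, and contralateral library 3 is the highest for CARS (59.1 CPM) and SMKR1 (29.9 CPM).

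Of 8 tested genes on the list of the respiratory chain and ATP synthase, 7 had log2 fold changes above 0 and the median was 0.23. The 8, all that were found by name, were APOPT1 (COA8), ATP5MD, ATP5MPL, ATP5S (DMAC2L), CHCHD8 (COA4), COX18, MNF1 and LOC100139115 (SURF1). No subunit gene of complexes I to IV was found by name, so most of the chain was not read. At an unadjusted p under 0.05, 3 of the 8 were higher and 0 lower on the ipsilateral side, and none passed after adjustment. Over all entries tested, 4.2% were higher and 6.78% lower at that p, 48.2% lay above 0 and the median was -0.01. ATP5MD (ATP5MK), a small membrane subunit of ATP synthase, lay at 99.5, 112, 142 and 122 CPM in ipsilateral and at 96.9, 93.5, 78.7 and 76.9 CPM in contralateral libraries. The sides did not overlap, though ipsilateral library 1 and contralateral library 1 were close. Its log2 fold change was 0.44 ± 0.12 (SE, edgeR adjusted p = 0.381).

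MNF1, an assembly factor of complex III, lay at 66.05, 67.4, 92.8 and 78.9 CPM in ipsilateral and at 62.2, 55.9, 45.4 and 53.2 CPM in contralateral libraries, again without overlap (log2 fold change 0.48 ± 0.13 SE). For ATP5MPL (ATP5MJ), a further small ATP synthase subunit, the values were 161, 134, 196 and 160 CPM against 145.8, 116, 122 and 118 CPM, which overlap. Ipsilateral library 3 was the highest for all 3 genes. The exception in direction was SURF1, counted under LOC100139115 and needed to assemble complex IV, at -0.85 ± 0.40 (SE). It lay at 10.1, 12.03, 14.3 and 14.1 CPM in ipsilateral and at 21.1, 7.27, 39.7 and 22.6 CPM in contralateral libraries, with contralateral library 2 below all others. The mitochondrial micropeptide gene SMIM37 (MTLN), which was not on the list, had 0.33 ± 0.13 with sides that did not overlap.

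Genes of the extracellular matrix lay mostly below 0. Of 28 found by name, 19 were tested, and the other 9 did not pass the filter on low counts. Of the 19, 15 had log2 fold changes below 0, with a median of -0.14, and 4 were lower and 0 higher at an unadjusted p under 0.05, beside 6.78% lower and 4.2% higher over all entries tested. The lower genes were the laminin chain LAMA5, the secreted matrix genes CILP and MXRA5, and COL9A2, a chain of type IX collagen.

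LAMA5, a chain of basement membrane laminins, lay at 1.76, 2.37, 2.75 and 1.04 CPM in ipsilateral and at 3.84, 3.25, 3.55 and 4.42 CPM in contralateral libraries. It was the 1 gene of these 4 whose sides did not overlap, with a log2 fold change of -0.94 ± 0.33 (SE, edgeR adjusted p = 0.412). MXRA5 lay at 0.670, 0.364, 0.134 and 0.0612 CPM against 0.533, 1.503, 0.634 and 3.02 CPM, and its log2 fold change of -2.27 was -3.00 without ipsilateral library 1. The MXRA5 values of ipsilateral libraries 3 and 4 are below the level that 3 counts give, which was between 0.150 and 0.283 CPM in cumulus libraries.

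COL9A2 lay at 69.1, 25.05, 12.7 and 29.0 CPM in ipsilateral and at 63.0, 170, 195 and 32.6 CPM in contralateral libraries. The sides overlapped widely, and the log2 fold change of -1.78 ± 0.73 (SE) was -2.39 without ipsilateral library 1. CILP had -2.23 ± 0.73 (SE), which was -3.35 when ipsilateral library 2 was left out and -1.59 when contralateral library 4 was. The collagen genes counted most, COL4A4 and COL21A1, had -0.12 ± 0.11 and -0.28 ± 0.16.

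Markers of mural granulosa cells, which line the follicle wall, varied among these libraries. Of the 6 markers listed, 2 were found by name. A2M, a protease inhibitor, lay at 1.67, 16.7, 1.41 and 1.16 CPM in ipsilateral and at 4.90, 19.1, 11.9 and 8.89 CPM in contralateral cumulus libraries. Ipsilateral library 2 was far above the other 3 of its side and within the contralateral range. The mean in the 8 granulosa libraries was 545 CPM. TIMP1, a metalloproteinase inhibitor that overlaps SYN1, lay at 46.5, 82.6, 38.8 and 14.9 CPM against 56.3, 62.7, 70.4 and 40.7 CPM, with 2020 CPM in granulosa libraries.

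Neither marker differed between the sides by edgeR (log2 fold change -1.14 ± 0.94 SE with an adjusted p of 0.673 for A2M, and -0.35 ± 0.45 with 0.812 for TIMP1). Without ipsilateral library 2 the value of A2M was -3.00, also without a call. LAMA5 and MXRA5 were also counted more in granulosa cells, with means of 14.1 and 13 CPM, whereas HSPA6 stood at 1.86 CPM and CILP at 0.306 CPM there. The part of granulosa cells in the matrix gene values was not tested. In pooled RNA, fewer cells of a type and less RNA per cell cannot be told apart.

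The motile cilium list was matched by symbol and takes in dynein light chain genes of any kind, so not every member is particular to motile cilia. Of 29 members found, 23 were tested, with a median of 0.07 and 14 above 0. At an unadjusted p under 0.05, 5 of the 23 were higher and 1 was lower on the ipsilateral side, beside 4.2% and 6.78% over all entries tested. HYDIN, a component of the central pair of the axoneme, lay at 76.8, 58.4, 70.5 and 91.1 CPM in ipsilateral and at 67.9, 57.5, 58.8 and 53.3 CPM in contralateral libraries, which overlap (log2 fold change 0.31 ± 0.13 SE). The dynein light chain gene DYNLT1 lay at 212, 217, 243 and 250 CPM against 202, 209, 134 and 163 CPM, without overlap (0.37 ± 0.13 SE). C13H20orf194 (DNAAF9), a gene of dynein arm assembly, had 0.36 ± 0.14 (SE), and TCTEX1D2 (DYNLT2B), another dynein light chain, 0.52 ± 0.18.

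TCTE3 (DYNLT2) had 0.94 ± 0.41 (SE), with 14.8 CPM in ipsilateral library 1 and between 2.98 and 4.92 CPM in the other 7 libraries, so that 1 library carried its difference. The lower gene was CFAP44, a flagellar protein, at 1.09, 1.002, 0.469 and 1.41 CPM against 2.98, 1.79, 2.47 and 4.59 CPM. Its sides did not overlap (-1.58 ± 0.43 SE, edgeR adjusted p = 0.389), and it overlaps BOC in the annotation.

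Histones made for newly copied DNA had 19 of 24 tested members above 0, with a median of 0.22, beside 48.2% and -0.01 over all entries tested. None was higher or lower at an unadjusted p under 0.05. Among the 24, HIST1H2AK and HIST2H2AA4 had identical values (711 counts, -0.17 each), so they are not separate measurements. A further 32 were found by name and not tested. The libraries were made from poly-A RNA, and how much of these histone transcripts carries a poly-A tail was not tested. The values on this list may therefore cover only part of them. Among the 11 replacement histones tested, both macroH2A genes and no other member were lower at an unadjusted p under 0.05, beside 6.78% over all entries tested. H2AFY (MACROH2A1) lay at 121, 115, 109 and 117 CPM in ipsilateral and at 132, 124, 153 and 124 CPM in contralateral libraries, without overlap (-0.22 ± 0.09 SE). H2AFY2 (MACROH2A2) had -0.48 ± 0.18 (SE), and the variants H3F3A and H3F3B had 0.14 ± 0.09 and 0.15 ± 0.09.

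Zinc-finger transcription factors had 1 higher and 3 lower of 63 tested at an unadjusted p under 0.05, with a median of 0.07. Neither count was above the share over all entries tested (4.2% and 6.78%), so these are single genes and not a result about the list. ZNF543 had 0.27 ± 0.11 (SE), ZFP69B -0.49 ± 0.20 and LOC506408 (ZNF786) -0.53 ± 0.24. ZNF580 had -1.93 ± 0.82, and a value of -1.0 without contralateral library 3.

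Of 11 septins, which form filaments, SEPT7 (SEPTIN7) was higher at an unadjusted p under 0.05 (0.22 ± 0.09 SE) and SEPT1 (SEPTIN1) lower. Over all entries tested 4.2% were higher and 6.78% lower at that p. With 1 septin in each direction, these are single genes and not a result about the list. SEPT1 had -1.91 with all libraries and -0.31 without contralateral library 4. Of 10 RING-CH ubiquitin ligases, 0 had an unadjusted p under 0.05, and their median was -0.06.

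**Figure D3:**
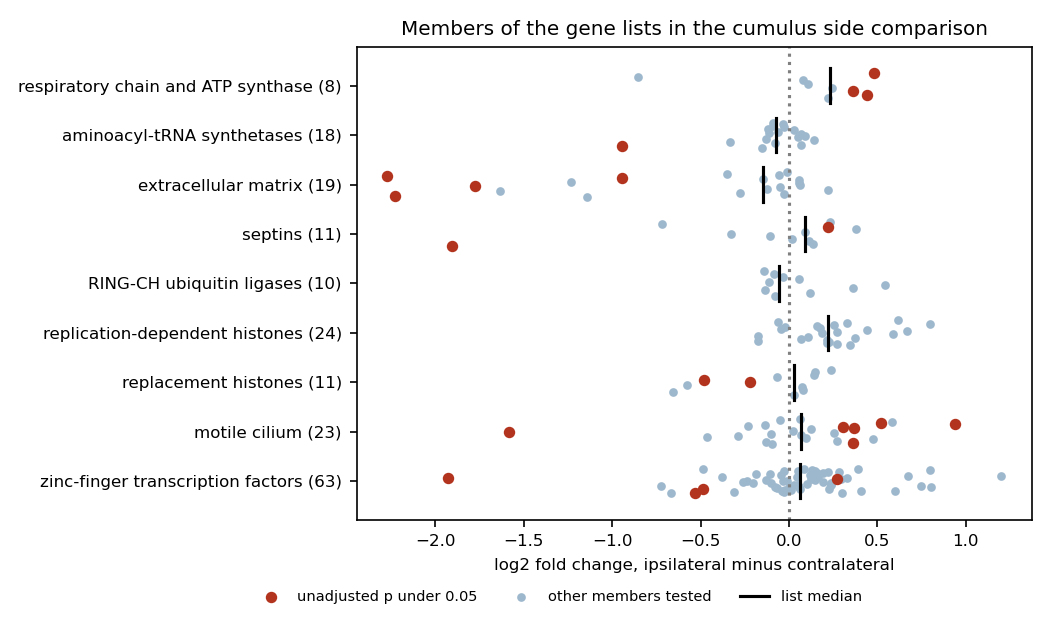
Log2 fold change (ipsilateral minus contralateral) of each tested member of the 9 gene lists with at least 5 tested members; the number tested is in parentheses, red points have an unadjusted edgeR p under 0.05 and black bars are list medians. The medians run from -0.14 for the extracellular matrix to 0.23 for the 8 named genes of the respiratory chain and ATP synthase list. The median over all entries tested was -0.01.

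Other lists had 1 or 2 tested members. The sterol desaturase-related gene FAXDC2 had 0.44 ± 0.14 (SE) with sides that did not overlap, and CHMP1B, a gene of membrane budding, -0.29 ± 0.11. RPL31, a ribosomal protein gene, had 0.15 ± 0.11, and the insulin receptor substrates IRS1 and IRS2 had 0.04 ± 0.16 and -0.12 ± 0.37. Meiotic and piRNA-pathway genes had 0 of 4 tested members with an unadjusted p under 0.05, and the smallest p among them was that of the meiotic kinetochore gene MEIKIN (-0.45 ± 0.22 SE).

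Among the remaining named entries with the smallest p, RBM8A, a core subunit of the exon junction complex, lay at 194, 199, 213 and 209 CPM in ipsilateral and at 182, 182, 152 and 161 CPM in contralateral libraries, without overlap (0.25 ± 0.08 SE, edgeR adjusted p = 0.409). UPF3A, which acts in nonsense-mediated decay of mRNA, had -0.48 ± 0.18, and SNURF, read from the transcript of the imprinted SNRPN locus, 0.24 ± 0.09. The 18S ribosomal RNA entry RN18S1 lay at 371, 298, 239 and 285 CPM against 229, 247, 225 and 222 CPM (0.36 ± 0.12 SE), with ipsilateral library 1 the highest and an overlap between the sides. Its log2 fold change was 0.23 without that library. Ribosomal RNA has no poly-A tail, and whether its share moved with RNA quality was not tested.

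SYN3, TNIK, SLC9C2, TAF7, PQLC1 (SLC66A2) and FAM160B2 were lower, with log2 fold changes from -0.97 to -0.37. LOC101906870 (HIRA), HS3ST4, FAM96B (CIAO2B) and C3H1orf123 (CZIB) were higher, from 0.24 to 2.28. Of these, TNIK, PQLC1, LOC101906870, HS3ST4 and C3H1orf123 had sides that did not overlap. HS3ST4, a heparan sulphate sulfotransferase, had 5.23 CPM in ipsilateral library 3 and between 1.26 and 1.47 CPM in the other ipsilateral libraries, and its 2.28 was 1.504 without library 3. Of 28 of the 30 leading named entries that the reference places, 15 overlap another gene, as SYN3 does with TIMP3 and TNIK with TMSB4.

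By the gap between the sides, the named entries with at least 5 CPM that stood farthest apart were AK9, OST4, C3H1orf123, RBM8A, C13H20orf194 and MNF1 in the higher direction. In the lower direction they were SMKR1, CARS, HSPA6, MUM1, C26H6orf52 and H2AFY. AK9, an adenylate kinase gene, lay at 6.95, 5.38, 6.30 and 5.45 CPM in ipsilateral and at 3.25, 4.605, 4.56 and 4.36 CPM in contralateral libraries (0.50 ± 0.22 SE). C26H6orf52 had -0.31 ± 0.16 with an unadjusted edgeR p of 0.0733.

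Among the named entries with the highest mean CPM, HMGN2, a nucleosome-binding protein gene, had a log2 fold change of 0.14 ± 0.10 (SE), and C11H2orf40, for a secreted peptide precursor, -0.33 ± 0.19. H2AFZ, the prohibitin gene PHB and the synthetases KARS and EPRS lay between -0.08 and 0.06.

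Among entries without a name, ENSBTAG00000051956 lay at 15.1, 17.5, 17.4 and 16.8 CPM in ipsilateral and at 5.43, 2.42, 3.80 and 0.895 CPM in contralateral libraries. Its log2 fold change was 2.40 ± 0.40 (SE, edgeR adjusted p = 0.210). ENSBTAG00000021932 had 0.43 ± 0.09. ENSBTAG00000013980 lay at 27.1, 26.4, 19.3 and 19.3 CPM against 50.3, 40.6, 56.9 and 46.5 CPM, a log2 fold change of -1.09 ± 0.16 (SE, edgeR adjusted p = 0.196). ENSBTAG00000051087 had -2.87 ± 0.44. In all 4 the sides did not overlap. DESeq2 called all 4, with adjusted p values from 1.43e-06 to 0.00587. Without contralateral libraries 2 and 4, edgeR called ENSBTAG00000051956, ENSBTAG00000013980 and ENSBTAG00000051087 (adjusted p from 0.0356 to 0.0446). Library 2 lay nearest the ipsilateral libraries, so leaving it out favours such calls and they add no support.

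Library 3 of each side held the highest value in many of these entries. Of the 685 entries higher on the ipsilateral side at an unadjusted p under 0.05, 335 (48.9%) were highest in ipsilateral library 3. Of the 1106 lower entries, 563 (50.9%) were highest in contralateral library 3. Over all tested entries, ipsilateral libraries 1 to 4 were the highest in 12.8%, 9.58%, 12.9% and 12.7%. Contralateral libraries 1 to 4 were the highest in 13.97%, 7.43%, 17.9% and 12.7%. The higher entries were highest in 0 cases in a contralateral library, and the lower ones in 0 cases in an ipsilateral library. Shares over all 8 libraries are therefore a low baseline, and those within a side are the ones to compare. Contralateral library 2 was the highest in 51 (4.61%) of the lower entries. Among the named lower entries 27 of 44 were highest in contralateral library 3, and 17 of the 22 DESeq2 calls in the higher direction were highest in ipsilateral library 3. These shares describe entries that were selected on the same values, and carry no test.

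Without contralateral library 2, DESeq2 called 676 entries in place of 120, with 89 of the 120 among them, and 2630 entries had an unadjusted edgeR p under 0.05 in place of 1791. Without contralateral library 4, DESeq2 called 55, and 42 of the 120 were among them. Without both, DESeq2 called 597 (69 of the 120 among them) and edgeR 30, with 14 higher in ipsilateral cells and 16 higher in contralateral cells. The last fit rests on 2 contralateral libraries. Leaving out contralateral library 2, the nearest to the ipsilateral libraries, favours more calls, so the larger counts are no support for a side difference.

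Among the cumulus libraries, oocyte transcripts stood out in contralateral libraries 4 and 2. BCL2L10, an anti-apoptotic gene of oocytes, lay at 0.167, 1.28, 0.335 and 0.122 CPM in ipsilateral and at 0.852, 9.60, 0.254 and 110 CPM in contralateral libraries. H1FOO (H1-8), the oocyte linker histone gene, lay at 0.502, 0.0911, 0.335 and 0.551 CPM against 0.266, 8.92, 0.571 and 91.3 CPM. Both genes were high in library 4, intermediate in library 2 and lowest in the other 6, where BCL2L10 had between 2 and 16 counts and H1FOO between 1 and 9. TCL1B had 10.9 CPM in library 4, 1.36 CPM in library 2 and 0 counts in each of the other 6, where a count of 0 allows up to 3 counts. SOHLH1, a transcription factor gene of early oocytes, had 2.63 and 0.194 CPM in libraries 4 and 2 and 0 counts in the other 6. FBXW12, also on the oocyte list, did not follow this pattern and lay between 113.7 and 140.6 CPM in all 8 libraries. LOC518980 (OVCH1), the remaining member found, lay at 1.76, 0.273, 0.0670 and 1.59 CPM in ipsilateral and at 0.0533, 2.18, 1.08 and 4.03 CPM in contralateral libraries. It was highest in contralateral libraries 4 and 2, but ipsilateral libraries 1 and 4 came near the level of contralateral library 2. The pattern was not particular to cumulus cells, since BCL2L10 reached 5.46 CPM and H1FOO 5.17 CPM in a granulosa library.

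Entries that stood at least 2-fold above every other cumulus library, with at least 100 counts, numbered 373 in contralateral library 4, of which 244 stood at least 4-fold above. They held 1.4% of that library's counts. There were 54 such entries in contralateral library 3, 11 in contralateral library 2 and 2 to 5 in each of the other 5 libraries. Contralateral library 2 was the next highest for 268 of the 373 (71.8%), and the median ratio of library 4 to library 2 was 6.5 (quartiles 3.83 and 9.77).

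Named entries of this kind in library 4 numbered 31. By ratio they were led by IGHM, an immunoglobulin heavy chain gene (31.7 CPM against 0.727 in the next library), and TDRD15, a Tudor domain gene (17.4 against 0.727). C5H22orf46, LOC787740 (OR2A69), FAM46B (TENT5B), BCL2L10, MRVI1 (IRAG1), LOC505120 (TLE7), HRH1 and LOC112446404 (CCDC201) followed, and the next highest was contralateral library 2 for each of these 10. ZGLP1, a transcription factor gene of the oogenic programme, had 24.998 CPM against 2.57. CCNI2 had 51.2 CPM against 5.33 and overlaps SEPT8, which stood at 89.8 CPM in the same library and between 16.9 and 29.97 CPM in the other 7.

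**Figure D4:**
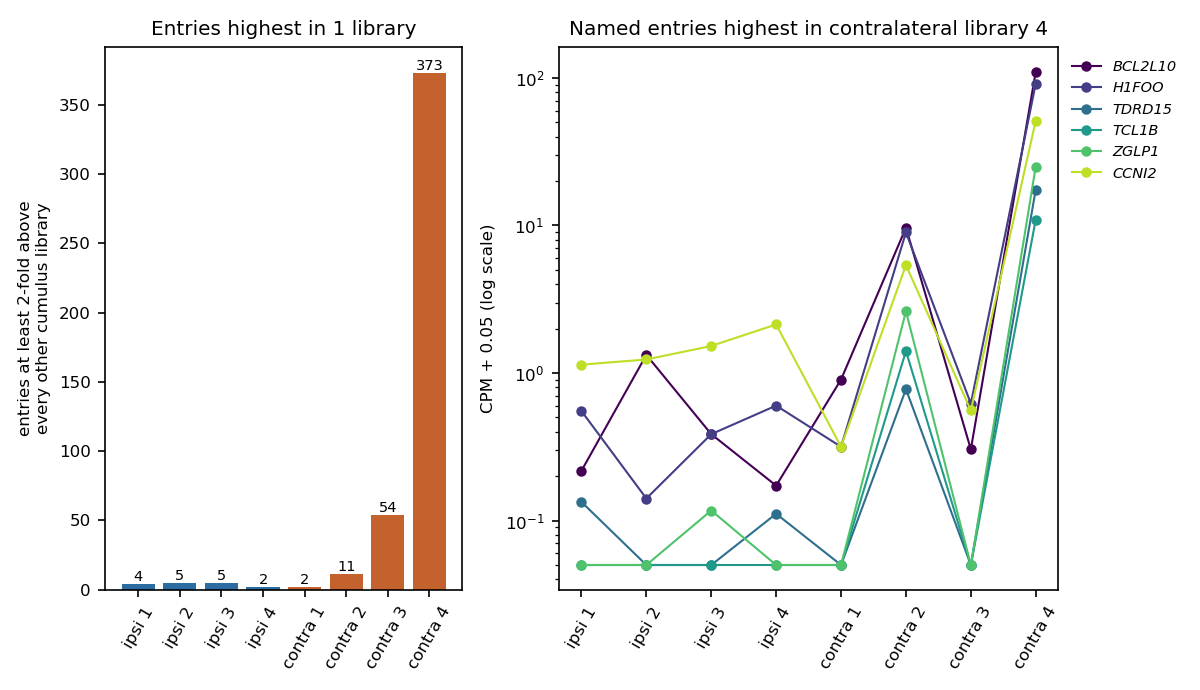
Left, the number of entries with at least 100 counts and at least 2-fold above every other cumulus library, per library (ipsi, ipsilateral; contra, contralateral); right, CPM + 0.05 on a log scale of 6 named entries, with lines joining the values of 1 gene and not an order in time. Contralateral library 4 holds 373 such entries, and the 6 genes are highest there and next highest in contralateral library 2.

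These entries touched the side comparison in part. Of the 373, 209 were tested by edgeR, and 15 were among the 98 lower DESeq2 calls. That is 15.3% of those calls and 4.02% of the 373, beside 0.488% lower calls over the 20086 entries with an adjusted p. The 373 were chosen by a high value in a contralateral library, which favours lower calls, so this share carries no test. BCL2L10 had a log2 fold change of -6.11 ± 2.19 (SE, edgeR adjusted p = 0.429, DESeq2 adjusted p = 0.0412), with values of -2.99 when contralateral library 4 was left out and -7.15 when ipsilateral library 2 was. H1FOO did not pass the filter for edgeR's test and was called by DESeq2 (adjusted p = 0.0258).

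In contralateral library 3, the named entries at least 2-fold above every other library were G0S2, CTGF (CCN2), TMEM203 and LOC101903326 (ZNF707). G0S2, an inhibitor of triglyceride breakdown, lay at 1.34, 1.28, 3.42 and 2.39 CPM in ipsilateral and at 4.95, 2.08, 21.8 and 3.80 CPM in contralateral libraries. CTGF, a matricellular protein gene, stood at 132 CPM in library 3 and between 10.9 and 41.2 CPM in the other 7 libraries.

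The side difference of cumulus cells was set against that of granulosa cells in 1 model over all 16 libraries. By edgeR 0 of 18038 entries passed (0.0%). The smallest adjusted p was 0.653, and the unadjusted p lay under 0.05 in 1358 entries. DESeq2 called 1 entry, which has no name. The named entries with the smallest p were MXRA5, CASC4 (GOLM2), HSPA6, TTC25 (ODAD4) and MUM1. HSPA6 had a side difference of -1.41 ± 0.36 (SE) in cumulus and 0.32 ± 0.41 in granulosa cells, a difference of -1.73 ± 0.52. For MUM1 the values were -0.40 ± 0.09 and 0.13 ± 0.14, and for TTC25, a gene of dynein arm docking, 0.58 ± 0.30 and -1.64 ± 0.58. In granulosa cells TTC25 lay at 1.82, 1.19, 1.48 and 1.76 CPM in ipsilateral and at 2.09, 5.03, 10.2 and 1.61 CPM in contralateral libraries. Contralateral granulosa libraries 2 and 3 thus stood highest, and the sides overlapped. In simulation this test recovered 2.99% of 1.5-fold, 20.9% of 2-fold and 57.6% of 4-fold differences of side effects. Differences of 2-fold or less were thus mostly not detected there. The planted differences lay only in entries above a floor on mean count, so entries counted less are not covered. By edgeR, none of the side differences was shown to be particular to cumulus cells.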

How the data were processed

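The deposited table holds raw read counts per gene entry, with 1 column per library, and columns were matched to samples by title. The submitters' processing notes name STAR, Trimmomatic, FastQC and DESeq2, with no version. Which program counted the reads, on which build and annotation, is not given in the sources used. Per the labels' protocols, column-purified RNA was DNase-treated, amplified with SMART-Seq HT, prepared with Nextera XT and read single-end over 75 bp. Names came from the table or, for 1105 LOC entries, from RefSeq genes of ARS-UCD2.0, and no coordinates are given.

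Entries with low counts were dropped by filterByExpr at its minimum count of 10 and total of 15, and counts were scaled by TMM and tested over the 8 cumulus libraries with edgeR 4.0.16 (robust quasi-likelihood test, Benjamini-Hochberg adjustment over all entries tested, limma 3.58.1, R 4.3.3). Entries were called at an adjusted p under 0.05. The difference of side effects used all 16 libraries. DESeq2 1.42.0, limma-voom, other scalings and filters and leaving out libraries were alternatives. Replicates were compared first, and their chi-square per entry was between 12.0 and 45.5, so none was a repeat of another. On simulated counts of the cumulus side comparison (16323 entries), edgeR recovered 22.4% of 1.5-fold, 70.1% of 2-fold and 95.5% of 4-fold changes with 7 false calls of 132. DESeq2 recovered 32.8%, 79.1% and 97.0% with 28 false calls of 167. In this simulation and that of the difference of side effects, changes were planted only in entries above a floor on mean count. No simulated library was made to stand apart from its group. The rates need not hold for entries counted less or for the libraries that stood apart here. The limit for a count of 0 is 3 counts and covers counting error only, since PCR copies are not independent molecules.

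The libraries compared, the gene lists and the rule for named entries were chosen with earlier results of these data known. Named in the text were the 30 named entries with the smallest p, named DESeq2 calls, up to 4 members per list with the smallest p, 2 unnamed entries per direction, the 10 with the highest mean CPM (1 of them is not reported here), up to 10 per library with the largest ratio to the other cumulus libraries, the 5 with the smallest p in the difference of side effects and up to 6 per direction with the widest gap between sides. COL4A4, COL21A1, SMIM37, BAG5, ZGLP1, CCNI2, SEPT8, TCL1B, SOHLH1 and FBXW12 were in part chosen after their values were seen.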

Additional observations from a re-analysis of the deposited data

Results flagged for a closer look

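In 14 of 174 groups of 4 libraries checked (each followed gene on each side), 1 library lay far from the other 3 of its side, by Dixon's criterion at the 95% level, which chance meets in about 1 in 20 groups. In contralateral library 4 these were BCL2L10 at 110 CPM, H1FOO at 91.3 CPM, SEPT1 at 14.1 CPM and CILP at 5.98 CPM, all above the other 3 libraries. In contralateral library 3, CARS was high at 59.1 CPM and the piRNA-pathway gene TDRD12 low at 0.697 CPM. In contralateral library 1, TCTEX1D2 was high at 11.6 CPM and CASC4 high at 199.9 CPM, where the other 3 lay at 195 to 196 CPM. In ipsilateral library 2, A2M was high at 16.7 CPM, SEPT4 (SEPTIN4) high at 13.4 CPM and BAG5 low at 5.83 CPM. FAM96B was low in ipsilateral library 1 at 112 CPM, HS3ST4 high in ipsilateral library 3 at 5.23 CPM and MARCH5 (MARCHF5) high in ipsilateral library 4 at 29.2 CPM.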

How the results depend on the processing

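edgeR called 0 entries under every alternative scaling and filter and with any 1 library left out, and 30 without contralateral libraries 2 and 4. Contralateral library 2 lay nearest the ipsilateral libraries, so fits without it favour more calls. DESeq2 called 120 entries, 55 without contralateral library 4, 597 without contralateral libraries 2 and 4, and between 42 and 676 with 1 library left out (42 without ipsilateral library 3, 51 without ipsilateral library 4, 182 without contralateral library 1 and 676 without contralateral library 2). The leave-one-out DESeq2 fits were chosen after seeing the data. The count at an unadjusted p under 0.05 was between 1340 and 2630 with 1 library left out. For the difference of side effects DESeq2 called 1 entry and edgeR 0 under each alternative. The difference in library total was -4.4 M (mega) and between -5.32 and -3.55 M with 1 library left out. Of 1518 gene values under alternatives, 20 turned in sign, none of them past the threshold, and 13 gained a call, which were SMKR1, MUM1, CARS, OST4, HSPA6, BCL2L10 and the 4 unnamed entries by DESeq2 and 3 of those unnamed entries by edgeR without contralateral libraries 2 and 4. The cause was not tested. Without contralateral libraries 2 and 4, log2 fold changes were 0.71 for LOC518980 (OVCH1), 0.028 for CAGE1 and -0.10 for BAG5. FBXW12 had 0.00083 without a filter, 0.00088 by DESeq2 and 0.0027 with all 16 libraries. With 1 library left out, values crossed 0 within these ranges: FBXW12 from -0.058 to 0.045, TDRKH from -0.35 to 0.012, TDRD12 from -0.14 to 0.20, IRS2 from -0.48 to 0.075, IRS1 from -0.079 to 0.16, MARCH2 from -0.29 to 0.023, H2AFZ up to 0.024 and KARS from -0.0035 to 0.089. Beyond values given with the genes, LOC518980 had -0.27 without contralateral library 4, LOC616868 (H2BC14) 0.10 without ipsilateral library 1 and A2M -3.00 without ipsilateral library 2. Over all settings the list medians ran from 0.13 to 0.32 for the respiratory chain and ATP synthase, from -0.41 to -0.13 for the extracellular matrix, from -0.09 to -0.03 for the aminoacyl-tRNA synthetases and from 0.06 to 0.67 for the replication-dependent histones, and those of the motile cilium (-0.04 to 0.12), replacement histones (-0.07 to 0.07) and RING-CH ubiquitin ligases (-0.06 to 0.07) took both signs. No paired analysis was possible because the labels give no replicate numbers or animals that tie pools of the 2 sides together. With 4 pools a side, differences under 2-fold were often below what the test recovered in simulation.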
